A study of Mus musculus with 56 samples.

Results

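Skipped exons of 28 to 300 bases whose length is not a multiple of 3 change the reading frame when they are left out of a coding sequence. They were taken from the deposited skipped exon tables of 11 comparisons by their exon start and end alone, and an exon was kept where inclusion and skipping junctions together had a mean of at least 20 reads per replicate in both sets of a table. The number kept was 1775 of 3931 skipped exon events meeting the same minimum in cortex, 2064 of 4622 in hippocampus and 2886 of 5942 in cerebellum. It was 5531 of 9996 in liver, 5709 of 11009 in muscle and 9503 of 17176 in testis. In N2a cells, a mouse neuroblastoma line, 12457 of 22614 events were kept, and in the 4 co-transfection tables the numbers were 28225 of 47665, 30718 of 51532, 32032 of 54552 and 35191 of 59093. An event is an exon with 1 pair of flanking exons, so an exon with alternative flanks counts more than once. Over all tables these were 37601 distinct exons with a median length of 118 bases, of which 19028 left a remainder of 1 base and 18573 a remainder of 2 bases after division by 3. Of the listed frame-shifting events, 3375 in cortex to 40028 in the last co-transfection table, those under the read minimum were not analysed.

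The tissues came from Fmr1 knockout (KO) and wild-type (WT) mice, with 3 samples per genotype of cortex, hippocampus, cerebellum, liver, muscle and testis, and the labels gave no age, strain or sex. In the first cell experiment, N2a cells were given either an siRNA to Fmr1 (siFmr1, n = 3) or a non-targeting control (siNT, n = 2). A second N2a experiment with 3 samples per group combined an siRNA with a plasmid, delivered with Lipofectamine. The empty plasmid pcDNA went with each of siNT, siFmr1 and siMbnl1. A plasmid for nuclear MBNL1 with a FLAG tag (nMBNL1) went with siFmr1, and one for its cytoplasmic counterpart, also tagged (cMBNL1), with siMbnl1. All its cells therefore carried both an siRNA and a plasmid, and N2a is 1 transformed line. Each splicing table compares a set 1 with a set 2. For the tissues and for the first co-transfection table (siNT pcDNA and siFmr1 pcDNA) the tables do not say which set is which, so differences are given there only as set 1 minus set 2. In the N2a table, set 1 was siFmr1 and set 2 siNT. Set 1 of the other co-transfection tables was siMbnl1 pcDNA, siFmr1 nMBNL1 and siMbnl1 cMBNL1. The second and the fourth of these tables share set 2 of the first table, and the third uses set 1 of the first table as its set 2, so their values are set side by side and no overlap between them is read as a result.

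When a frame-shifting exon is skipped or added inside a coding sequence, the ribosome usually meets a stop codon soon after the altered junction. A stop that lies well upstream of the last exon junction commonly marks the transcript for nonsense-mediated decay (NMD), so the steady-state RNA shows less of such a form than was spliced. Many genes of splicing regulators hold a conserved exon of this kind, either a poison exon whose inclusion brings the stop or an essential exon whose omission does, and use it to limit their own level. Exons with lengths divisible by 3 add or remove amino acids and keep the frame. MBNL1 and MBNL2 are RNA-binding regulators of alternative splicing, and FMRP, the product of Fmr1, is an RNA-binding protein best known as a regulator of translation.

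The sequences below were chosen because their exons carried the clearest differences between tissues or sets, or belong to regulators with a known switch of this kind. They were read from GENCODE M21 transcripts (GRCm38), 5′ to 3′ on the strand of the gene. Where a stop is shown, the capitals mark the first in-frame stop codon of the named form. Clk1 and Clk4 encode kinases that phosphorylate SR splicing factors, and their 91-base exons (chr1:58420121-58420211, minus strand, and chr11:51273078-51273168, plus strand) were identical at 85 of 91 bases (93.4%). Without the exon, either reading frame ran 18 bases past the junction before a stop.
Clk1 exon: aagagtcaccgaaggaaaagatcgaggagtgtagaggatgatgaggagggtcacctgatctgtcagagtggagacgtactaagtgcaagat
Clk4 exon: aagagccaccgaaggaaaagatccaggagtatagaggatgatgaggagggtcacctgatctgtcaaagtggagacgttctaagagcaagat
Clk1 skip form after the junction: atgaaattgttgatacttTAG
Clk4 skip form after the junction: atgaaatcgtggacacttTAG

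Ptbp1 and Ptbp2 encode polypyrimidine tract binding proteins, which repress neuronal exons, and omission of this Ptbp1 exon is a known autoregulatory switch. Their 34-base exons (chr10:79862014-79862047, plus strand, and chr3:119724612-119724645, minus strand) were identical at 26 of 34 bases (76.5%), and both skipped forms reached a stop after 24 bases. Mbnl1 and Mbnl2 share a 95-base exon (chr3:60622146-60622240 and chr14:120404638-120404732, both plus strand) with 81 identical bases (85.3%). Dlg4 encodes a scaffold protein of the postsynaptic density, and its 110-base exon (chr11:70043658-70043767, plus strand) left a stop 9 bases past the junction when skipped.
Ptbp1 exon: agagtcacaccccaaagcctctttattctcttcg
Ptbp2 exon: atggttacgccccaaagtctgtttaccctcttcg
Ptbp1 skip form after the junction: gcgtctacggtgatgtgcagcgggTGA
Ptbp2 skip form after the junction: gtgtttatggagatgtgcagcgcgTGA
Mbnl1 exon: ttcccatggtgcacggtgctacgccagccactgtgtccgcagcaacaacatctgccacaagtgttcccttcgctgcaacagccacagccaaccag
Mbnl2 exon: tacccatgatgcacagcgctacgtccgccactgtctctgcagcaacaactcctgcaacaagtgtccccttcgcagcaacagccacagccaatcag
Dlg4 exon: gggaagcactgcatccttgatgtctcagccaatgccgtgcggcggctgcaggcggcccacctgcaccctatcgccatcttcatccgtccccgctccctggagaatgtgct
Dlg4 skip form after the junction: agagatcaaTAA

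Fxr1, a paralog of Fmr1, has a 92-base exon (chr3:34068161-34068252, plus strand). By the rule for early stops given further below, neither form of the Fxr1 exon had an early stop. The stop marked in its skipped form therefore did not count as early. The Mbnl1 and Mbnl2 exons above likewise had an early stop in neither form. Hnrnph3, encoding a nuclear ribonucleoprotein, has a 139-base exon (chr10:63018760-63018898, minus strand) whose omission gave a stop after 101 bases. The Hnrnph3 exon matched the 139-base exon of Hnrnph1 (chr11:50381459-50381597, plus strand) at 126 bases (90.6%). How reads that fit both copies were treated is not given in the sources used here, so the values of Clk1, Clk4, Hnrnph1 and Hnrnph3 carry that uncertainty. Eif4a2, encoding an RNA helicase of translation initiation, stands for the other kind of exon (chr16:23112351-23112457, plus strand): its inclusion brought a stop after 7 bases.
Fxr1 exon: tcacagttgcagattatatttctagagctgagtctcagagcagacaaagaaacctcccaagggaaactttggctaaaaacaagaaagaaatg
Fxr1 skip form after the junction: gcaaaagatgtgatTGA
Hnrnph3 exon: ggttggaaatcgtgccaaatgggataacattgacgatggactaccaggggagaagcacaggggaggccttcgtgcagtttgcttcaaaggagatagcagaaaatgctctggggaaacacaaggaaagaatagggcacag
Hnrnph1 exon: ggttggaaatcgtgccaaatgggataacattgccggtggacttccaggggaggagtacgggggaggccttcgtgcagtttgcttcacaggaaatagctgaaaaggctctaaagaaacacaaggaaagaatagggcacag
Eif4a2 exon and on to the stop: gagtcgaTAG

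Depth differed between the experiments. Junction reads per library over all skipped exon events ranged from 406597 to 854473 in the brain regions, 7506227 to 12282115 in liver, muscle, testis and N2a cells, and 35906127 to 57090318 in the co-transfection tables. The median frame-shifting exon had 48 to 74 reads per brain library, 88 to 192 in the other tissues and N2a cells, and 227 to 369 in the co-transfection libraries. The Fmr1 gene level, the check of the labels, fell in KO cortex, hippocampus, cerebellum, liver and testis by 1.97, 1.90, 1.80, 1.61 and 1.95 on the log2 scale (edgeR, adjusted p at most 0.00312), but the drop in muscle (log2 -0.61, adjusted p = 0.0734) and in the siFmr1 cells of the first N2a experiment (log2 -2.25, adjusted p = 0.9999) did not pass. In the co-transfection, Fmr1 was lower than in siNT pcDNA by log2 -2.37 in siFmr1 pcDNA and -2.54 in siFmr1 nMBNL1, and Mbnl1 by log2 -1.56 in siMbnl1 pcDNA (limma, adjusted p at most 1.86e-07). Tissue markers were found in their own tissues. Whether the samples of a group came from separate animals or cultures is not stated, so the p-values measure only the spread between these samples.

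Most frame-shifting exons were nearly always included. Inclusion is the length-corrected share of junction reads that join the exon to a neighbour, and it was at least 90% on average over all libraries in 88.1% of the frame-shifting exons of cortex, 93.0% in liver and 94.1% in the siFmr1 nMBNL1 table, the lowest and highest of the 11 tables being cortex and that table. Between 10% and 90%, called partly included here, lay 9.30% in cortex, 8.96% in hippocampus, 7.14% in cerebellum, 5.71% in liver, 7.99% in muscle, 8.14% in testis and 6.65% in N2a cells. In the co-transfection tables the share was 5.87%, 6.39%, 5.22% and 5.78%. Frame-preserving skipped exons of the same lengths were partly included more often in each table: 24.3% in cortex, 24.0% in hippocampus, 21.6% in cerebellum, 11.2% in liver, 15.5% in muscle, 12.1% in testis, 11.7% in N2a cells and 7.84% to 8.90% in the co-transfection tables. The difference, frame-shifting minus frame-preserving, was therefore -14.97 points in cortex and -2.06 points in the siMbnl1 cMBNL1 table. Exons are not replicates, so this is a description per library and not a test.

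The single libraries showed the same order in the tissues. In cortex, the 6 libraries had 9.52% to 11.2% of frame-shifting and 24.6% to 26.0% of frame-preserving exons partly included. Liver libraries had 6.98% to 7.92% and 11.9% to 12.5%, and testis libraries 8.81% to 9.39% and 12.6% to 12.99%. The 2 classes did not overlap across the libraries of any tissue, nor in the N2a table (6.52% to 9.07% and 10.9% to 13.9%) or the first 3 co-transfection tables. In the siMbnl1 cMBNL1 table they did, with 5.77% to 8.12% against 7.63% to 9.97%.

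**Figure D1:**
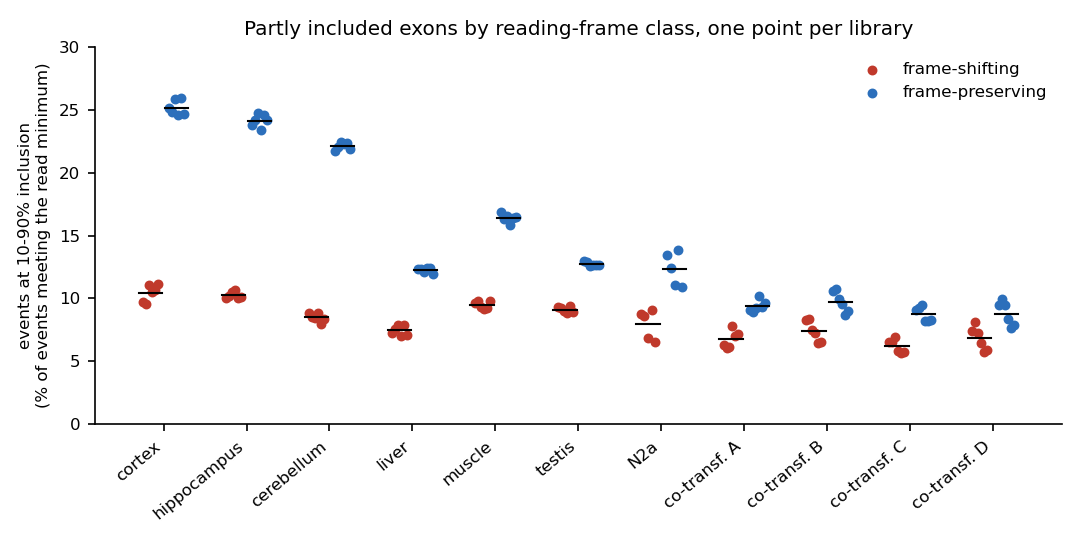
Share of skipped exons of 28 to 300 bases with an inclusion between 10% and 90% (vertical axis, percent of events meeting the read minimum) in each of the 11 tables (horizontal axis), 1 point per library, with black lines at the mean over libraries and the co-transfection tables lettered A to D in the order of the text. Frame-shifting exons (red) lie below frame-preserving exons (blue) in each table, with the widest gap in the brain regions, and the point clouds overlap only in the last co-transfection table.

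At the lower length limit, 26 events of the first co-transfection table had 28 bases, with a median inclusion of 99.5%. Just outside it, 61 events had 27 bases, with 96.3%. At the upper limit, 10 events had 300 bases and 6 had 301. Exons of 27 or 300 bases keep the frame, so these counts do not compare frame-shifting exons on both sides of a limit. Whether the limits cut through a dense region of frame-shifting exons was therefore not tested. Partly included exons spread widely between libraries. Their median standard deviation (SD) within a set was 8.23 points in cortex, 6.73 in hippocampus, 7.15 in cerebellum, 8.31 in muscle and 9.04 in N2a cells. Exons at 90% or more had 1.93 points in cortex and 0.794 in testis.

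Inclusion was set beside the predicted reading frame. Each form was written onto a coding transcript of the gene, and a stop counted as early when it ended more than 50 bases before the last exon junction. Omission gave an early stop for 1086 exons in cortex to 16639 in the siMbnl1 cMBNL1 table, and 95.4% to 97.4% of these were at 90% inclusion or more, depending on the table. The other direction was rarer: inclusion gave an early stop for 69 exons in cortex, 83 in hippocampus, 86 in cerebellum, 106 in liver, 138 in muscle, 193 in testis, 185 in N2a cells and 314 to 336 in the co-transfection tables. Their median inclusion was 30.1% in cortex, 22.6% in hippocampus, 27.8% in cerebellum, 34.7% in liver, 38.6% in muscle, 56.0% in testis and 35.9% in N2a cells, and 46.3% to 48.8% in the co-transfection tables. Exons with an early stop in neither form numbered 339 in cortex to 3322 in the siMbnl1 cMBNL1 table, and 84.4% (cortex) to 92.5% (liver) of these were at 90% or more. In 60.2% to 70.8% of the exons with an early stop on inclusion, that stop lay inside the exon itself. The classes rest on annotated transcripts, and the frame could not be built for 15.5% of the exons in cortex and 42.2% in the siMbnl1 cMBNL1 table. Each exon was added or removed alone, so an exon that normally replaces its neighbour can fall in the class with an early stop on inclusion.

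**Figure D2:**
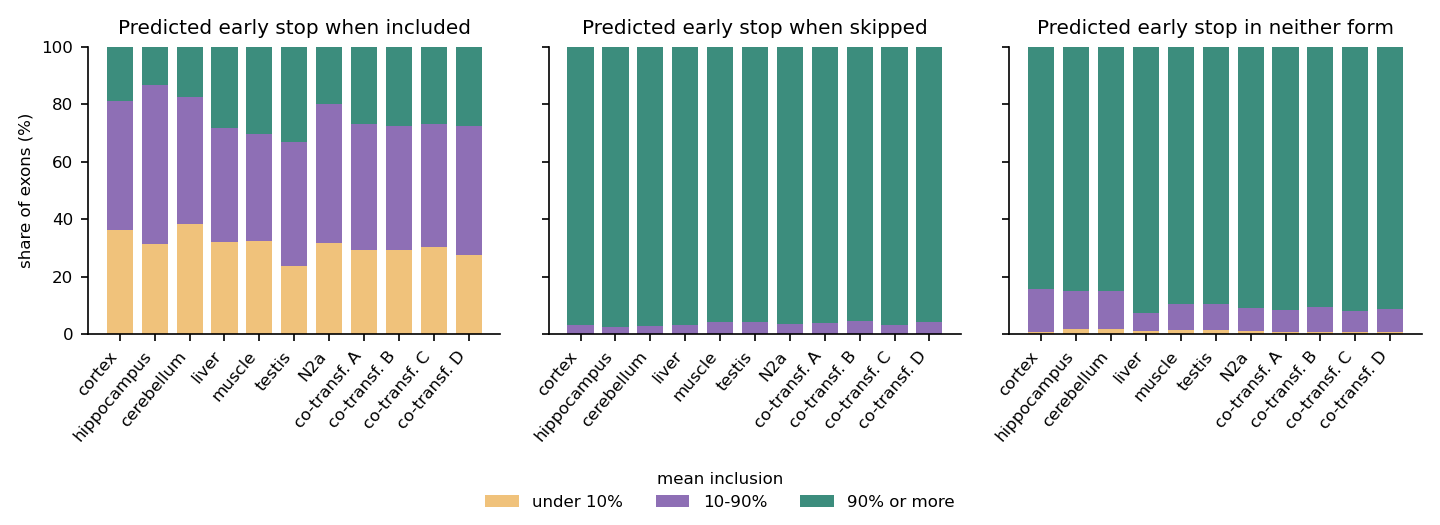
Share of exons (vertical axis, percent) with a mean inclusion under 10%, from 10% to 90%, and at 90% or more (stacked colours) in each table (horizontal axis), for exons whose inclusion (left), omission (middle) or neither form (right) gives a predicted early stop. At 90% inclusion or more are 13.3% to 33.2% of the exons on the left, 95.4% to 97.4% in the middle and 84.4% to 92.5% on the right.

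Annotation separated them further. Exons lying wholly in coding sequence were partly included in 3.85% (liver) to 6.04% (hippocampus) of cases, and exons lying in untranslated regions, where there is no frame to shift, in 28.6% (hippocampus) to 40% (liver). Exons found only in transcripts annotated as NMD targets had a median inclusion of 20.1% in cortex (26 exons), 13.8% in cerebellum (27), 18.3% in liver (38) and 24.3% in muscle (48), but 56.7% in testis (89) and 51.2% to 77.8% in the co-transfection tables. The junction that joins the neighbours of the exon was itself unannotated for 63.4% of the exons in cortex and 90.1% in the siMbnl1 cMBNL1 table, and of those only 1.33% and 2.95% were partly included. Where the omission was an annotated protein-coding form, 34.3% were partly included in cortex and 40.8% in that table. Of the partly included exons in cortex, 90.9% had an annotated omission, against 29.0% of those at 90% or more. Their median length was 92 against 107 bases, and their median GC content 49.3% against 49.0%. The last base was G in 81.4% and 77.4%.

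Across the 6 tissues, 300 frame-shifting exons met the read minimum in every tissue, and with both sets of a tissue pooled the median range between their highest and lowest tissue mean was 7.52 points. The range reached 50 points in 20 exons (6.67%) and 20 points in 71 (23.7%), and stayed under 5 points in 123 (41.0%). Of 351 frame-preserving exons measured in the same way, 89 (25.4%) reached 50 points and 69 (19.7%) stayed under 5. Among the 71 exons, inclusion was highest in testis for 22, in liver for 13 and in cerebellum for 10, and lowest in muscle for 22 and in liver for 18. The 3 brain regions differed by 20 points or more in 2 of them. Tissues differ in preparation between brain and the rest, and the part of that in these ranges was not tested. The exons named next were chosen after their values were seen.

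The 3 exons of widest range between tissue means set muscle apart. The 37-base exon of Atp5c1 (chr2:10056770-10056806), which encodes a subunit of the mitochondrial ATP synthase, had 0.728% to 3.74% inclusion in the 6 muscle libraries and at least 96.8% in each library of the other 5 tissues. Capzb, encoding an actin-capping subunit, showed the reverse at its 113-base exon (chr4:139288861-139288973): 87.3% to 94.7% in muscle, 22.7% to 31.1% in cerebellum, 8.76% to 13.04% in cortex, 6.45% to 9.78% in hippocampus, 1.80% to 3.64% in testis and at most 0.318% in liver. An 83-base exon of Mfn2 (chr4:147902928-147903010), whose product fuses mitochondria, lies in an untranslated region and was at 94.0% to 98.8% in muscle and at most 8.86% in any library of the other tissues. For all 3 genes muscle did not overlap any other tissue. Tpm3, a tropomyosin gene, had a mean of 84.5% in muscle at its 79-base exon against means of 3.25% to 17.3% in the other tissues.

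Exons of Fxr1, Mbnl2 and Mbnl1 were among those that differed widely between tissues. Fxr1 was ordered muscle (92.7% to 97.0%), testis (79.2% to 81.1%), cortex (25% to 54.8%), hippocampus (22.4% to 55.6%), liver (21.9% to 31.6%) and cerebellum (17.6% to 32.5%), and the last 4 tissues overlapped one another while muscle and testis stood clear. The Mbnl2 exon was at 82.5% to 100% in the brain libraries, 55.1% to 81.5% in testis, 46.8% to 69.2% in liver and 14.2% to 28.7% in muscle, so that only testis and liver overlapped. The Mbnl1 exon had its lowest level in liver, at 27.7% to 42.0%, with 68.4% to 88.3% in muscle and 73.0% to 100% in the other tissues. Testis stood apart at Eif5a, a translation factor gene, whose 94-base untranslated exon was at 63.8% to 74.3% there and at most 12.2% elsewhere (an exon beside it is also listed as alternative), and at Pitpnb, a lipid transfer gene, with 83.5% to 98.6% at its 85-base exon against 5.45% to 67.8%. Among the tissues, liver stood apart at H13, a signal peptide peptidase gene, with 6.19% to 10.98% at its 200-base exon against 55.8% to 90.3%, and at Rnps1, a splicing activator gene, with 30.2% to 48.8% at 1 of the listed forms of its 181-base exon against 75.4% to 100%. Within the brain, the 226-base untranslated exon of Srr, encoding serine racemase, was at 11.9% to 40.4% in cortex and 17.5% to 29.5% in hippocampus but 74.4% to 100% in cerebellum.

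**Figure D3:**
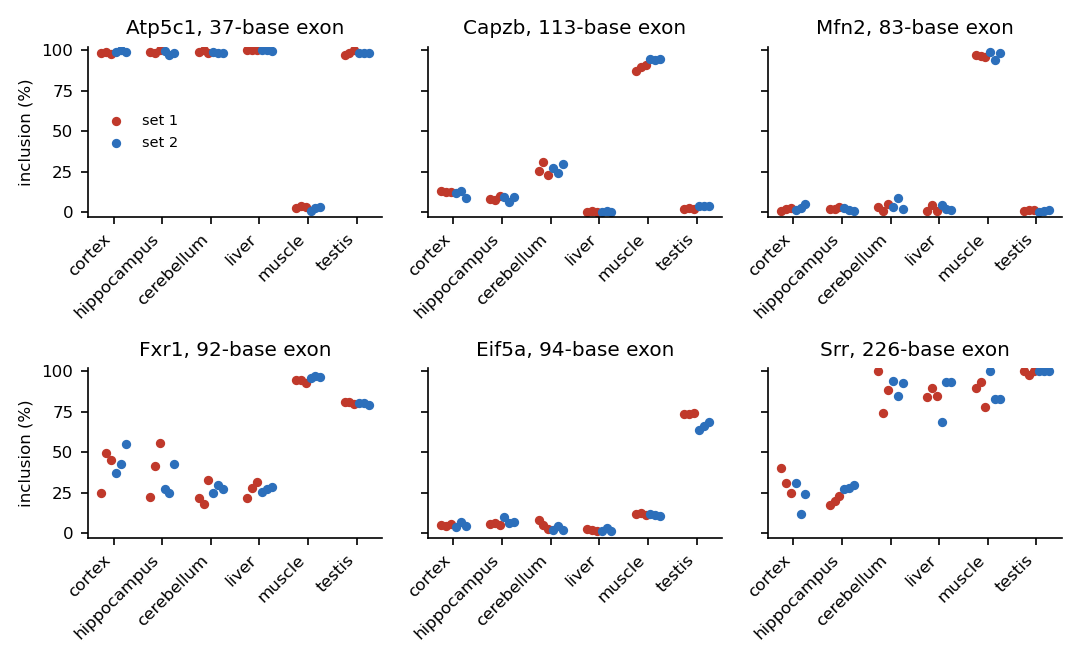
Inclusion (vertical axis, percent) of 6 frame-shifting exons in the 6 tissues (horizontal axis), 1 point per library, with set 1 in red and set 2 in blue. Atp5c1 falls to 0.728% to 3.74% in muscle, Capzb and Mfn2 rise there to at least 87.3%, Eif5a is high in testis, and Srr separates cerebellum from cortex and hippocampus.

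Among the 53 genes of splicing regulators and 19 of decay factors on a list of regulators, most frame-shifting exons stayed near full inclusion. In N2a cells 76 of 93 exons of the splicing regulators were at 90% or more, 15 were partly included and 2 lay under 10%. Of all frame-shifting exons there, 11497 of 12457 were at 90% or more, a higher share than among the regulators. The Ptbp1 exon was at 94.5% to 98.9% on average in every table but muscle, where its libraries ranged from 72.7% to 95.3%. Ptbp2 averaged 98.6% in cortex, 83.5% in muscle, 87.5% in testis, 73.5% in N2a cells and 77.3% to 81.8% in the co-transfection tables. The Clk1 exon was lowest in testis, with libraries at 24.95% to 53.3%, and highest in liver, at 89.9% to 100%. The Clk4 exon was at 67.1% to 77.7% in the testis libraries, 79.1% to 96.0% in liver, 49.0% to 70.7% in cerebellum and 36.8% to 54.6% in the co-transfection libraries. The Dlg4 exon was at 97.8% or more in each brain library, with 99.4% on average in cortex, 99.8% in hippocampus and 99.5% in cerebellum, and at 52.1% to 87.0% in the N2a libraries. Brain and N2a libraries did not overlap there.

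**Figure D4:**
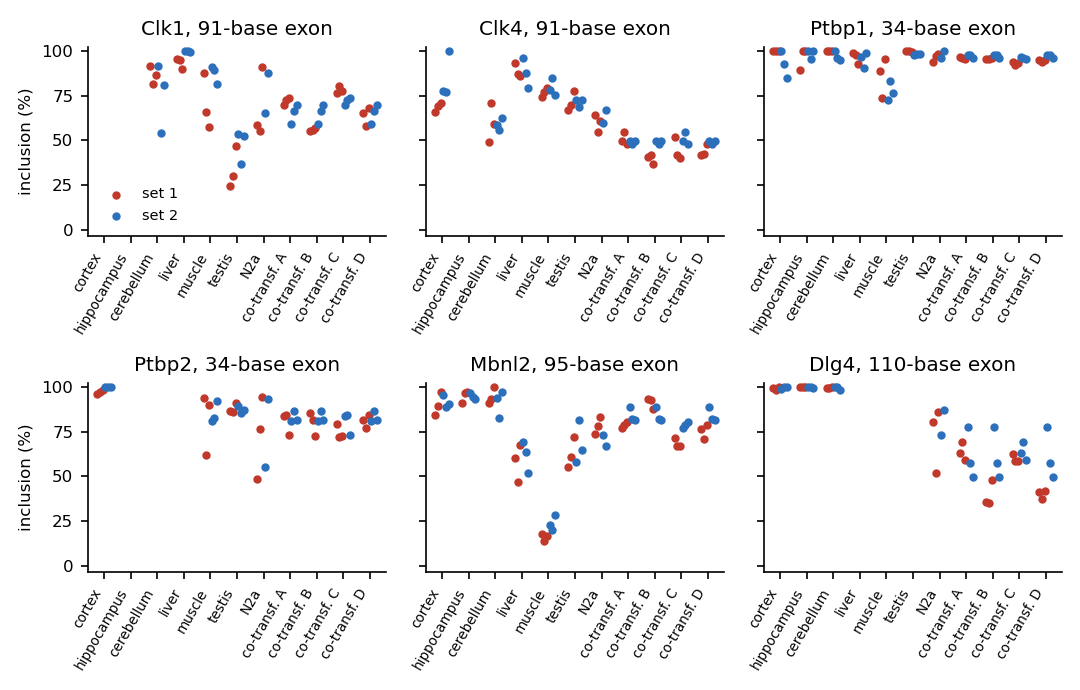
Inclusion (vertical axis, percent) of 6 frame-shifting exons of splicing regulator genes and Dlg4 in each table where they met the read minimum (horizontal axis), 1 point per library, with set 1 in red and set 2 in blue. The Dlg4 exon is at 97.8% or more in brain and at most 87.0% in N2a cells, Mbnl2 is lowest in muscle, and Clk1 is lowest in testis.

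The comparison of KO with WT tissue asks whether loss of FMRP changes splicing of these exons. Few of them passed. An exon was called at an adjusted p under 0.05 in a quasi-binomial test and a difference of at least 10 points (0.1 as a fraction). None was called in cortex, hippocampus, cerebellum or N2a cells, as 0.0% of all events were called in each of these 4 tables. The lowest adjusted p of a frame-shifting exon was 0.405, 0.0675, 0.464 and 0.515. The N2a libraries did not separate by siRNA in their share of partly included frame-shifting exons. That share was 8.73%, 8.57% and 6.83% in siFmr1, and 9.07% and 6.52% in siNT. A change within this spread could go uncalled. At an unadjusted p under 0.05 there were 141 exons in cortex (8.39% of all events), 88 in hippocampus (4.52%), 103 in cerebellum (3.99%) and 761 in N2a cells (6.42%). The deposited rMATS FDR with the same minimum difference called 2 in cortex (0.204% of all events), 0 in hippocampus (0.0433%), 0 in cerebellum (0.0168%) and 62 in N2a cells (0.575%), and limma on log odds called 1 in cerebellum (0.0505%) and none in the other 3. Partly included exons of the brain differed by a median of 5.12 points in cortex, 4.34 in hippocampus and 4.05 in cerebellum. The median SD within a set was 8.23, 6.73 and 7.15 points. Means of 3 libraries usually differ by less than the SD of single libraries without any change. These values therefore do not tell a change from none.

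Liver had 4 called exons (0.0723%, against 0.08% of all events), muscle 4 (0.0701%, against 0.263%) and testis 5 (0.0526%, against 0.0582%). All of these 13 separated their sets without overlap, and none was called in each of the 6 fits that leave out 1 library. In liver, the 47-base exon of Sirt2 (chr7:28767632-28767678, plus strand), a protein deacetylase gene, was at 19.6%, 7.83% and 5.06% in set 1 and 35.5%, 26.0% and 52.1% in set 2, a difference of -27.0 points (adjusted p = 0.00420). Omission of this exon, shown here with the stop of the skipped form, gave a predicted early stop after 17 bases. That prediction reads from the start codon of 1 coding transcript, and start codons further downstream were not considered. Mean inclusion ran from 16.5% in cortex to 54.4% in testis, so the skipped form was common in each tissue.
Sirt2 exon: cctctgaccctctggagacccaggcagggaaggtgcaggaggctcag
Sirt2 skip form after the junction: gattcagactcggacacTGA

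The remaining liver exons lay in H2afy (17.5 points higher in set 1), which encodes a histone variant, in C78339 (-14.7 points) and in Sf1 (-10.2 points), which encodes the factor that binds the branch point. H2afy has a pair of mutually exclusive exons, so its inclusion can hold reads of 1 side only, and it was called in 0 of the 6 left-out fits. In muscle, an 88-base exon of 4833439L19Rik was 30.7 points higher in set 1 (adjusted p = 0.00689), and exons of Rnf14, a ubiquitin ligase gene, Fam204a and Dusp13, a phosphatase gene, were lower by 17.98, 15.7 and 13.8 points. The Dusp13 exon lies in an untranslated region and had 73.7%, 78.5% and 87.0% in set 1 and 94.1%, 93.9% and 92.4% in set 2. The Mbnl1 exon just missed the minimum difference in muscle, with 68.4%, 73.7% and 75.1% in set 1 and 88.3%, 81.4% and 77.7% in set 2 (-10.00 points). In testis, exons of Zdhhc1, a palmitoyltransferase gene, Plxnb2, a semaphorin receptor gene, Dtnb, a dystrobrevin gene, and Ift20, an intraflagellar transport gene named here after its values were seen, were lower in set 1 by 23.3, 18.7, 13.3 and 11.04 points. A 31-base exon of Ralgapa1 was 12.3 points higher there (adjusted p = 0.0223). The deposited rMATS FDR called more: 36 in liver (0.69% of all events), 29 in muscle (0.863%) and 37 in testis (0.378%). Limma called none of these exons in the 3 tissues, and 0.0454% of all events in muscle.

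The co-transfection tables, with the deepest libraries, held the most calls. The first table had 152 called events in 136 genes (0.539%, against 0.829% of all events). Of these, 114 were higher in set 1 (0.634% of all events had that call) and 38 lower (0.195%). The siMbnl1 pcDNA table had 96 (0.313%, against 0.543%), 11 higher (0.175%) and 85 lower (0.369%) in siMbnl1 pcDNA. The siFmr1 nMBNL1 table had 157 (0.490%, against 0.61%), 43 higher (0.181%) and 114 lower (0.429%) in siFmr1 nMBNL1. The siMbnl1 cMBNL1 table had 237 (0.673%, against 0.836%), 30 higher (0.198%) and 207 lower (0.638%) in siMbnl1 cMBNL1. In each table the frame-shifting share lay under that of frame-preserving exons, 1.11%, 0.722%, 0.715% and 0.922%. Restricted to partly included events the shares were 7.72% of frame-shifting and 11.8% of frame-preserving exons in the first table (10.0% of all such events), 4.18% and 7.86% in the second (6.68%), 5.50% and 6.73% in the third (6.13%), and 8.06% and 8.72% in the fourth (8.92%).

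The counts fell in each table whichever library of set 1 was left out. Without 1 of the set 1 libraries, the count was 27 to 52 in the first table, 7 to 45 in the second, 35 to 54 in the third and 1 to 5 in the fourth, and without 1 of the set 2 libraries 152 to 200, 104 to 141, 99 to 109 and 296 to 336. The exons called in all 6 left-out fits numbered 21, 5, 24 and 1. Limma called 0, 1, 44 and 83 frame-shifting exons, with 0.00194%, 0.147% and 0.272% of all events in the last 3 tables. The deposited rMATS FDR called 379, 456, 296 and 586, with 1.68%, 1.82%, 1.03% and 1.87% of all events. For the exons below, except those of Plxna3 and Eno2, the number of left-out fits that called them is given, for some as an upper limit.

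Exons whose inclusion brings an early stop had a higher share of calls than all frame-shifting exons together: 17 of 315 (5.40%) in the first table, 10 of 314 (3.18%) in the second, 11 of 334 (3.29%) in the third and 20 of 336 (5.95%) in the fourth. Exons whose omission brings it were called in 52 of 14062 (0.370%), 23 of 14800 (0.155%), 53 of 15455 (0.343%) and 65 of 16639 (0.391%). These classes differ in how many exons are partly included, as given above, and no test was made between them. The calls with an early stop on inclusion also hold exons of mutually exclusive pairs, such as those of Rab6a and Snap25. In the first table a flanking exon was itself listed as skipped for 221 of the 315 exons. The same held for 9042 of the 14062 exons whose omission brings the stop. In the first table, of the 52, 47 were higher in set 1, and of the 65 in the fourth 8 were higher in siMbnl1 cMBNL1.

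Hnrnph3 had 1 of the exons called in all left-out fits of the first table. Its exon was at 67.5%, 70.0% and 68.0% in set 1 of the first table and 19.0%, 32.9% and 28.6% in set 2, 41.7 points apart (adjusted p = 9.83e-16, called in 6 of 6 left-out fits). It was 44.4% ± 3.08 (SD, n = 3) in siMbnl1 pcDNA and 49.2% ± 1.40 in siMbnl1 cMBNL1, both called higher than that set 2 in the full fit and in 3 of 6 left-out fits, and 64.6% ± 3.69 in siFmr1 nMBNL1. Every library of the other 4 groups lay above those of set 2. The Hnrnph1 exon moved less, from 83.4% ± 4.48 in set 2 to 93.6% ± 0.161 in set 1 (adjusted p = 7.24e-12, 4 of 6 fits). In the tissues the Hnrnph3 exon averaged 96.3% to 98.3% in brain and 54.5% to 79.0% in liver, muscle and testis.

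The Fxr1 exon was at 73.5%, 73.6% and 72.9% in set 1 of the first table and 62.4%, 61.7% and 57.7% in set 2 (12.7 points, adjusted p = 8.03e-11, 6 of 6 fits). It was 74.9% ± 0.476 in siFmr1 nMBNL1, 55.9% ± 1.18 in siMbnl1 pcDNA and 54.2% ± 1.80 in siMbnl1 cMBNL1, and none of those 3 tables called it. The exon of Clk3, another kinase gene of the Clk family, went both ways: 88.6% ± 0.441 and 75.8% ± 0.624 in sets 1 and 2 of the first table, but 60.2% ± 1.62 in siMbnl1 pcDNA and 62.7% ± 4.41 in siMbnl1 cMBNL1. Those are differences of 12.8, -15.6 and -13.1 points (adjusted p = 0.00530, 0.0153 and 0.0342), each called in at most 3 of 6 left-out fits. Scamp5, a gene of synaptic vesicle membranes, had a like pattern at its 157-base exon, with 76.3% ± 4.28, 61.5% ± 2.03, 48.6% ± 2.85 and 46.7% ± 1.70, called in 6, 3 and 3 of 6 fits. Itga6, an integrin gene, did so at its 130-base exon, with 79.7% ± 3.97, 63.6% ± 6.95, 31.9% ± 3.74 and 48.6% ± 2.299. At Itga6 the siMbnl1 pcDNA difference of -31.7 points was called in 6 of 6 fits and the other differences in 3 each, and siFmr1 nMBNL1 stood at 84.3% ± 5.72.

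A second group of exons had 1 level in set 2 of the first table and another in the other 4 groups. The 49-base untranslated exon of Gnb1, encoding a G protein subunit, was at 34.4%, 36.8% and 35.3% in set 2, and at 52.3% ± 1.10 in set 1 (adjusted p = 2.23e-22, 6 of 6 fits), 50.5% ± 1.60 in siMbnl1 pcDNA (6 of 6), 49.4% ± 2.10 in siMbnl1 cMBNL1 (4 of 6) and 54.8% ± 0.424 in siFmr1 nMBNL1. The 97-base exon of Dlg1, a scaffold gene, is found only in NMD transcripts and was at 18.01% ± 4.82 in set 2 and 3.84% ± 0.872, 5.20% ± 1.02, 7.59% ± 1.31 and 7.90% ± 2.10 in the others, with calls in 5, 3 and 2 of 6 fits in the first, siMbnl1 pcDNA and siMbnl1 cMBNL1 tables. The Eif4a2 exon was at 89.6% ± 3.81 in set 2 and 76.8% ± 4.29, 76.8% ± 0.0691, 79.5% ± 1.42 and 80.4% ± 0.419 elsewhere (6, 5 and 1 of 6 fits in the same 3 tables). Klc1, a kinesin light chain gene, was at 94.1% ± 1.29 in set 2 and 63.2% to 77.7% on average elsewhere at its 131-base exon, and Rab6a, a Golgi trafficking gene, at 77.0% ± 3.85 and 86.6% to 94.3%. In those 3 tables the Klc1 exon was called in 6, 5 and 3 of 6 fits and the Rab6a exon in 6, 4 and 2. Rab6a and Snap25, a synaptic fusion gene called in all 4 tables (5, 5, 3 and 3 of 6 fits), each have a pair of mutually exclusive exons, so that their inclusion can hold reads of 1 side only. A set shared by 3 tables enters all of these differences.

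**Figure D5:**
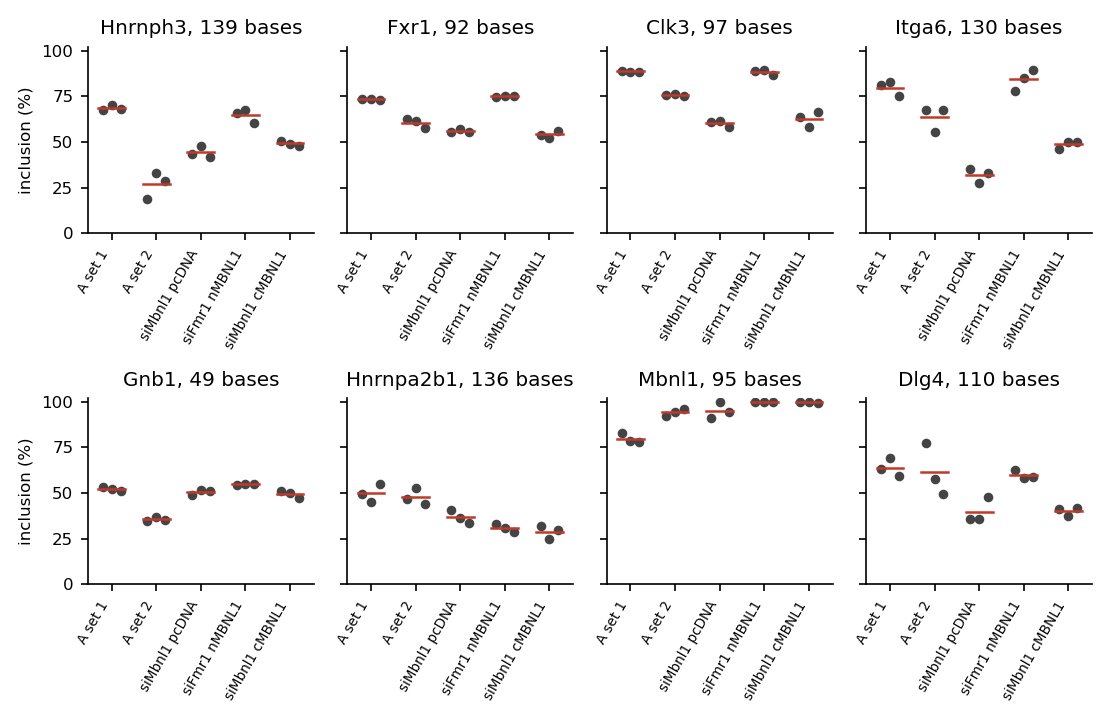
Inclusion (vertical axis, percent) of 8 frame-shifting exons in the 5 sets of the co-transfection experiment (horizontal axis), 1 point per library and a red line at the mean of 3. A set 1 and A set 2 are the sets of the first table, siNT pcDNA and siFmr1 pcDNA in an order the table does not give. Hnrnph3 and Gnb1 are lowest in A set 2, while Clk3, Itga6 and Dlg4 are lowest in the 2 siMbnl1 groups.

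The Dlg4 exon was at 35.9%, 35.5% and 47.9% in siMbnl1 pcDNA and 41.3%, 37.3% and 42.0% in siMbnl1 cMBNL1, against 77.3%, 57.7% and 49.6% in their common set 2 (differences of -21.8 and -21.3 points, adjusted p = 0.0323 and 0.0259, 2 and 3 of 6 fits). Set 2 spread over 14.2 points SD. Its lowest library, at 49.6%, lay close above the highest of siMbnl1 pcDNA, at 47.9%. In the other 2 groups it was 63.7% ± 4.99 and 59.9% ± 2.34. The 136-base untranslated exon of Hnrnpa2b1, another ribonucleoprotein gene, was at 49.9% ± 4.86 and 47.9% ± 4.58 in sets 1 and 2 of the first table and at 36.8% ± 3.34 in siMbnl1 pcDNA, 30.8% ± 2.23 in siFmr1 nMBNL1 and 28.9% ± 3.74 in siMbnl1 cMBNL1. Against its own set 2, the drop in siFmr1 nMBNL1 was 19.0 points (adjusted p = 1.01e-18, 6 of 6 fits), and the siMbnl1 pcDNA and siMbnl1 cMBNL1 differences were called in 2 and 3. The Luc7l exon, which is found only in NMD transcripts of this U1-associated splicing factor gene, was higher in siMbnl1 cMBNL1, at 57.0% ± 2.21 against 41.5% ± 3.88 (adjusted p = 0.00241, 3 of 6 fits). A pair of overlapping exons of Hnrnpr and exons of Celf1, Ptbp3, Mbnl2 and Smg1, a kinase gene of the decay pathway, were called in 1 or 2 tables each, in at most 4 of 6 fits.

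The Mbnl1 exon was at 79.7% ± 2.65 in set 1 and 94.2% ± 1.95 in set 2 of the first table (adjusted p = 0.00292, 4 of 6 fits), and at 99.7% in siFmr1 nMBNL1 and in siMbnl1 cMBNL1. In those 2 groups the plasmid carries Mbnl1 sequence. Inclusion junction reads numbered 18082, 22555 and 17206 in siFmr1 nMBNL1 and 3903, 4585 and 3493 in siMbnl1 cMBNL1, against 141 to 196 in the libraries of the first table, and their skipping reads numbered 23 to 37 and 5 to 10. The Mbnl1 gene level was log2 1.47 and 2.16 above siNT pcDNA in the same 2 groups. The part of plasmid-derived reads in both inclusion values was not tested.

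The widest single differences lay elsewhere. In the first table they were in Atp2a3, a calcium pump gene (28.4% ± 11.4 against 75.4% ± 16.5), 2610020H08Rik (45.9 points higher in set 1) and 4833439L19Rik (44.8 points higher). In siMbnl1 pcDNA they were in 4833439L19Rik (50.5 points higher) and in Fign, a microtubule-severing gene, Zc3h7a and Tcf3, a transcription factor gene (47.7, 38.1 and 37.1 points lower). In siFmr1 nMBNL1, exons of Celf3, an RNA-binding protein gene, Tmem179b, Zdhhc1 and Stoml1 were 46.7, 40.7, 39.4 and 38.0 points lower. In siMbnl1 cMBNL1, exons of Crtc1, a transcriptional coactivator gene, Atp2a3 and Zc3h7a were 45.03, 37.7 and 36.5 points lower, and a 29-base exon of Unc79, a gene of the sodium leak channel complex, 42.5 points higher. Outside Hnrnph3, each of these was called in at most 4 of 6 left-out fits.

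Over all 11 tables, a total of 499 distinct exons in 432 genes were called. Since the co-transfection tables share sets, a call in several of them is no repeat of a result. Exons of 4833439L19Rik, Cyp20a1, a cytochrome gene, Snap25 and Trnau1ap, a gene of selenoprotein synthesis, were called in 4 tables. The Cyp20a1 exon was at 91.7% ± 4.86 in set 2 of the first table and 76.3% ± 2.23, 59.6% ± 3.54, 63.7% ± 11.1 and 65.2% ± 2.26 in the other groups, and was called in 3, 6, 0 and 3 of 6 left-out fits. On the regulator lists, 4, 4, 4 and 7 exons of splicing regulators were called in the co-transfection tables among 185, 217, 224 and 236 of their exons, and of decay factors 0, 0, 1 (Smg1) and 0. Of all frame-shifting exons 0.539%, 0.313%, 0.490% and 0.673% were called, and several listed calls share a gene. The median absolute difference was 0.280 to 0.320 points for splicing regulators and 0.463 to 0.712 for decay factors, against 0.558 to 0.642 for all frame-shifting exons.

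At gene level, the hosts of these exons were expressed above the average gene. The median host had 79.3 TPM in cortex, 70.2 in hippocampus, 70.3 in cerebellum, 23.7 in liver, 23.8 in muscle, 33.4 in testis and 32.8 in N2a cells, against 19.6, 19.5, 22.2, 9.05, 9.33, 10.9 and 19.5 over all genes, which the read minimum favours. Hosts of exons whose inclusion brings an early stop had a median of 110 TPM in cortex, 100.5 in hippocampus, 104 in cerebellum, 26.9 in liver, 35.0 in muscle, 38.6 in testis and 33.1 in N2a cells, against 69.9, 65.9, 66.8, 22.3, 22.8, 34.8 and 32.7 for hosts of exons whose omission does. Few hosts were called in KO brain by edgeR: 0 of 1401 in cortex (0.0203% of all genes were called), 5 of 1594 in hippocampus (0.314%, against 0.209%) and 3 of 2110 in cerebellum (0.142%, against 0.226%). At an unadjusted p under 0.05 cortex had 403 hosts (28.8%, against 21% of all genes). DESeq2 called 143 hosts in cortex (10.2%, against 8.56%), 40 in hippocampus (2.51%, against 2.21%) and 7 in cerebellum (0.332%, against 0.743%). Without WT replicate 3, edgeR called 151 hosts in cortex and 39 in cerebellum. The 5 of hippocampus, Apod, Mag, Pkp4, Plekhb1 and Sept4, were all lower in KO, by 0.41, 0.46, 0.30, 0.38 and 0.49 on the log2 scale (edgeR, adjusted p at most 0.0433), and were named after their values were seen. Mag and Plekhb1 were called in 1 of 6 left-out fits and the other 3 in 0. The summed level of 3 oligodendrocyte markers lay at 3853 to 3962 CPM in KO and 4635 to 4922 in WT hippocampus, with 1 of 3 called lower. Its part in these 5 was not tested, and in bulk tissue fewer cells of a type and less RNA per cell cannot be told apart.

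In liver 8 of 3158 hosts were called (0.253%, against 0.411%), among them Hsd3b2, a steroid dehydrogenase gene (40.1 ± 4.70 CPM in KO and 94.0 ± 5.71 in WT), and Cyp3a11, a cytochrome gene (9003 ± 1210 and 4644 ± 287), called in 5 and 3 of 6 left-out fits. Muscle had 93 of 3373 (2.76%, against 4.04%), 46 higher and 47 lower in KO. Testis had 250 of 4635 (5.39%, against 4.27%), 162 higher and 88 lower. These counts depended on which library was left out: leaving out 1 gave 1 (KO replicate 3) to 55 (WT replicate 1) in liver, 1 (KO replicate 3) to 111 (WT replicate 3) in muscle and 55 (WT replicate 2) to 498 (KO replicate 1) in testis. DESeq2 called 54 hosts in liver (1.71%, against 2.26% of all genes), 281 in muscle (8.33%, against 8.36%) and 229 in testis (5.28%, against 4.81%). In muscle the summed level of 3 fibroblast markers was 2351 to 3627 CPM in KO and 1143 to 1992 in WT, and in testis 3 Leydig cell markers summed to 888 to 939 and 964 to 1249. The part of either in the host calls was not tested. No host of 5662 was called in N2a cells (0.0% of all genes), with 12 at an unadjusted p under 0.05 (0.212%, against 0.386%) and 0 by DESeq2 (0.0% of all genes). The edgeR test did not call the silenced Fmr1 there either, so the absence of calls is not read as an absence of change. Against siNT pcDNA, 3323 of 7725 hosts were called in siFmr1 pcDNA (43.0%, against 37.0% of all genes), 3211 of 7816 in siMbnl1 pcDNA (41.1%, against 32.8%), 4029 of 8080 in siFmr1 nMBNL1 (49.9%, against 41.1%) and 3335 of 8038 in siMbnl1 cMBNL1 (41.5%, against 33.7%), with limma on log2 normalized counts. The summed level of 3 genes listed as astrocyte markers was 494 to 568 normalized counts in siNT pcDNA, and 180 to 193, 302 to 381, 198 to 267 and 300.4 to 364 in the other 4 groups in the same order, with 2, 1, 3 and 1 of the 3 called. N2a is 1 transformed line, so this sum is the level of these genes and no measure of a cell type. Any link of these genes to the host calls was not tested.

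Exon and gene calls were set side by side. In muscle, 2 of 4 genes with a called exon were also called at gene level: Dusp13, at 95.7 ± 18.3 CPM in KO and 151 ± 12.6 in WT, and Fam204a, at 17.0 ± 0.237 and 25.5 ± 4.22, both lower in KO and kept in at most 2 of 6 left-out fits. In liver and testis none of 4 and 5 was. In the co-transfection experiment the exon differences of the siMbnl1 pcDNA and siMbnl1 cMBNL1 tables are against set 2 of the first table and those of the siFmr1 nMBNL1 table against its set 1, while all gene differences are against siNT pcDNA, so the controls differ in at least 1 of these tables. There 49 of 135 genes with a called exon in the first table (36.3%) were called in siFmr1 pcDNA, 29 of 81 (35.8%) in siMbnl1 pcDNA, 74 of 135 (54.8%) in siFmr1 nMBNL1 and 84 of 200 (42.0%) in siMbnl1 cMBNL1, shares to be read against 43.0%, 41.1%, 49.9% and 41.5% of all hosts. Of the genes called both ways, 35 were higher and 14 lower than siNT pcDNA in siFmr1 pcDNA. The numbers were 10 and 19 in siMbnl1 pcDNA, 33 and 41 in siFmr1 nMBNL1, and 36 and 48 in siMbnl1 cMBNL1. Zc3h7a, Plxna3 and Eno2, given next, are examples of lower levels only. Zc3h7a, whose exon values are above, was lower at gene level by 0.54 in siMbnl1 pcDNA and 0.48 in siMbnl1 cMBNL1 on the log2 scale. Plxna3, a semaphorin receptor gene, fell by 0.68 and 0.82, with its 191-base exon at 52.7% and 49.0% against 83.6%. Eno2, the neuronal enolase gene, fell by 0.85 in siMbnl1 cMBNL1 with an exon at 37.5% against 53.8%, an exon whose inclusion gives the early stop. Dlg4 RNA was at 2045 ± 144 normalized counts in siMbnl1 pcDNA and 2596 ± 450 in siNT pcDNA (log2 -0.33, adjusted p = 0.0234, 2 of 6 fits), and at 3811 ± 164 in siFmr1 pcDNA (log2 0.57, 6 of 6 fits). Hosts whose exons differed without a call at gene level included Fxr1, whose level in siFmr1 pcDNA was log2 0.02 from siNT pcDNA (adjusted p = 0.863).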

How the data were processed

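RNA-seq of 56 samples was used as deposited. The submitters' processing notes name CASAVA, FastQC 0.11.8, Trimmomatic 0.39, Bowtie2 2.3.5, STAR 2.6.1, RSEM 1.3.1 and DESeq2 1.16.1 with the build GRCm38, without roles. Per the file headers, the deposited skipped exon tables give whole junction reads, form lengths and inclusion levels per replicate, and an FDR, a p-value adjusted by the authors with rMATS. The authors deposited gene counts and TPM for the tissues and first N2a experiment, and a signal of normalized counts for the co-transfection, in which 27 of 23091 rows had a date for a name and were left out. A further 4 columns of per-sample values were not used. The TPM values per the file headers served only to give host levels.

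Inclusion was recomputed from junction reads and form lengths (skipping form 34 bases in the brain tables, 149 in others), and 100% of the deposited differences matched within 0.002. All events with a mean of at least 20 reads per replicate in both sets entered a quasi-binomial test on length-scaled reads, with moderated dispersion bounded at 1 and Benjamini-Hochberg adjustment over the table. Calls needed an adjusted p under 0.05 and a difference of at least 0.1. Gene counts were tested with edgeR 4.0.16 (quasi-likelihood, TMM, filterByExpr), normalized counts with limma 3.58.1 on log2(value + 1) at a mean of at least 1. R 4.3.3 and Python 3.11.15 were used. Gene counts per library ranged from 13230785 to 41384652. Named exons were the 4 called exons of largest difference per table without overlap of the sets, 1 per gene, those called in at least 3 tables, and called exons of the listed regulators and Dlg4, and others are said to be chosen after their values were seen. The members and gene lists were chosen with earlier results of these data known.

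In data simulated for cortex, liver and the first co-transfection table, the quasi-binomial test recovered 43%, 29% and 29% of 100 changes of 0.2 in inclusion and 99%, 77% and 86% of 100 changes of 0.4, among 3931, 9996 and 47665 events, with 7, 0 and 0 false calls. The alternatives were the deposited FDR, limma 3.58.1 on log odds, other read minimums, no dispersion bound, DESeq2 1.42.0, a replicate block, and each library left out.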

Additional observations from a re-analysis of the deposited data

How the results depend on the processing

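The share of partly included exons stayed lower for frame-shifting than for frame-preserving exons in each table under each alternative run. With at least 50 reads the difference was -13.98 points in cortex, -13.37 in cerebellum, -13.22 in hippocampus, -6.06 in muscle, -2.97 in liver, -4.25 in N2a cells, -2.82 in the first co-transfection table and -2.27 in the siMbnl1 cMBNL1 table. With at least 10 reads it was -13.72 in cerebellum, -6.07 in liver, -7.95 in muscle, -4.20 in testis and -2.20 in the siMbnl1 cMBNL1 table. With inclusion reads divided by 2 it was -3.65 in testis, and -2.35, -2.58 and -1.92 in the siMbnl1 pcDNA, siFmr1 nMBNL1 and siMbnl1 cMBNL1 tables. Leaving out 1 library gave -15.4 to -14.7 in cortex, -14.7 to -14.2 in cerebellum, -15.6 to -14.7 in hippocampus, -5.59 to -5.21 in liver, -7.68 to -7.27 in muscle, -3.92 to -3.75 in testis and -5.27 to -4.62 in N2a cells, and -2.87 to -2.57, -2.57 to -2.44, -2.82 to -2.60 and -2.11 to -2.01 in the co-transfection tables.

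The number of called exons depended on the test, and the cause was not tested. By the deposited FDR it was 2 in cortex, 62 in N2a cells, 36 in liver, 29 in muscle, 37 in testis and 379, 456, 296 and 586 in the co-transfection tables. By limma on log odds it was 1 in cerebellum, 0 in liver, muscle, testis and the first co-transfection table, and 1, 44 and 83 in the other co-transfection tables. An alternative chosen after seeing the data, unscaled reads with the form lengths as an offset, gave 7 in liver, 7 in muscle and 10 in testis. Leaving out 1 library gave 0 in each brain region, 2 to 11 in N2a cells, 1 to 6 in liver, 1 to 7 in muscle, 1 to 8 in testis, and 27 to 200, 7 to 141, 35 to 109 and 1 to 336 in the co-transfection tables. Of 137 values of named exons, 135 kept their call by the deposited FDR, 15 by limma, 133 with the offset and 19 in every left-out fit. No direction reversed. No paired analysis was possible because the replicates within the sets of the splicing tables carry no number.

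Host genes called by DESeq2 numbered 143 in cortex, 40 in hippocampus, 281 in muscle, 54 in liver and 7 in cerebellum. With the replicate block they numbered 0 in hippocampus, 2 in liver, 3 in muscle and 146 in testis, and the count moved by under 1.5 times in the other comparisons. The deviations of same-numbered samples correlated at -0.69 to 0.74, above 0.1 in 1 pair of hippocampus (0.62) and 1 of N2a cells (0.74) and in no other, and in no comparison of 3 pairs did every sample correlate best with its own number, so the numbers were not taken to pair samples. Leaving out 1 sample gave 0 to 151 in cortex (151 without WT replicate 3), 0 to 2 in hippocampus, 1 to 39 in cerebellum, 1 to 55 in liver, 1 to 111 in muscle, 55 to 498 in testis and 0 to 0 in N2a cells. In siFmr1 pcDNA, siMbnl1 pcDNA, siFmr1 nMBNL1 and siMbnl1 cMBNL1 it gave 2668 to 3711, 2427 to 3807, 3343 to 4500 and 2605 to 4078. The median exon had 48 to 74 reads per brain library, and in simulated data 43% of differences of 0.2 were recovered in cortex and 29% in liver.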
